A study of Mus musculus with 6 samples.

Results

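The genes described here are 9 members of the TGF-beta pathway, out of 31053 features counted in the series, and were chosen by symbol: the ligand Tgfb1, its anchoring protein Nrros, the receptors Tgfbr1 and Tgfbr2, the signalling SMADs Smad2, Smad3 and Smad4, and the inhibitors Smad7 and Skil. They were chosen with earlier results of these data known, though the rule itself uses no measured value, and all 9 passed the filter on low counts in each of the 4 cell classes tested. TGF-beta is secreted in a latent complex that is held on the cell surface, in microglia by the protein NRROS, until integrins release it. The active ligand joins a type 2 and a type 1 receptor, which phosphorylate SMAD2 and SMAD3, and these enter the nucleus with SMAD4. SMAD7 blocks the receptor and SKIL the SMAD complex, and TGF-beta signalling is known to be needed for the mature gene program of microglia, the resident macrophages of the brain.

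The cells were living CD45-positive leukocytes sorted from C57BL/6 mouse brain, and 6 libraries of single-cell RNA were made, 1 for each of 2 genotypes at 3 times. All mice carried the floxed allele Cd300a-fl/fl; those of the second genotype, Cd300a-fl/fl Lyz2-cre, also carried Cre recombinase at the lysozyme locus, which is active in myeloid cells and to a varying degree in microglia. Mice were naive, or were taken at 1 h or 3 h after a 60 min filament occlusion of the middle cerebral artery (MCAO) had been released. Each library pooled 3 brains, and no combination of genotype and time had a second pool. The libraries held 35479437 to 48478866 unique molecular identifiers (UMIs) over 7156 to 10642 barcodes, and 47077 cells were used, with a median of 3902 to 5225 UMIs per cell. Pairs of libraries shared 12 to 30 barcodes, at most 0.412% of the smaller library. Microglia-like cells made up 70.1% to 87.7% of the cells of a library, and neutrophil-like cells grew from 2.23% and 4.39% of the naive fl/fl and Lyz2-cre libraries to 15.7% and 10.4% at 3 h. In neutrophil-like cells Cd300a, the floxed gene, was at 174.5, 256 and 128 CPM (UMIs of a gene per 1000000 UMIs of the class) in the fl/fl libraries and at 16.2, 10.4 and 9.86 CPM in the Lyz2-cre libraries, so the libraries followed their labels.

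Levels between classes are a description, with no test. The ligand gene Tgfb1 (ENSMUSG00000002603; GRCm38 chromosome 7, 25687002 to 25705077, plus strand, 7 exons) had its highest median in microglia-like cells, at 441 CPM over 6 libraries (313 to 491). Monocyte-like cells followed at 337 CPM (281 to 506), a wider range that overlapped it. Of the 4 tested classes they had the highest level in 2 libraries, the naive ones. Neutrophil-like cells were lowest, at 70.4 CPM (46.3 to 105), and did not overlap the T-cell-like cells just above them, at 151 CPM (129 to 181). The anchoring gene Nrros (ENSMUSG00000052384; chromosome 16, 32142785 to 32165594, minus strand, 3 exons) was highest in 4 classes of mononuclear phagocytes. Its median was 241 CPM in monocyte-like, 229 CPM in conventional dendritic cell-like, 228 CPM in border-associated macrophage-like and 221 CPM in microglia-like cells, and the ranges of these 4 classes overlapped. T-cell-like cells had the lowest Nrros level of the 4 tested classes in 6 of 6 libraries, with a median of 25.4 CPM (15.5 to 50.9).

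The type 1 receptor gene Tgfbr1 (ENSMUSG00000007613; chromosome 4, 47353222 to 47414931, plus strand, 9 exons) separated microglia-like cells from the other classes. Its level was 772 to 1199.7 CPM in them, above the 210.1 to 646 CPM of border-associated macrophage-like cells, the next class. No other class passed 185.5 CPM in any library. The type 2 receptor gene Tgfbr2 (ENSMUSG00000032440; chromosome 9, 116084293 to 116175360, minus strand, 8 exons) was also highest in microglia-like cells, at a median of 282 CPM (185 to 305), but the 79.8 to 269.8 CPM of border-associated macrophage-like cells overlapped that range. T-cell-like cells came next, with a median of 113 CPM.

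The signalling SMAD genes differed less between classes. Smad2 (ENSMUSG00000024563; chromosome 18, 76241580 to 76310963, plus strand, 11 exons) had class medians from 25.5 CPM in B-cell-like to 45.7 CPM in microglia-like cells, and each class overlapped the next in that order. Smad3 (ENSMUSG00000032402; chromosome 9, 63646767 to 63757994, minus strand, 9 exons) was highest in microglia-like cells, at a median of 57.9 CPM, followed by NK-cell-like cells at 37.8 CPM, and was lowest in B-cell-like cells at 5.18 CPM. Smad4 (ENSMUSG00000024515; chromosome 18, 73639009 to 73703780, minus strand, 12 exons) ran from 46.1 CPM in B-cell-like to 83.8 CPM in monocyte-like cells, again with overlap between neighbours.

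Both inhibitor genes marked microglia-like cells. Smad7 (ENSMUSG00000025880; chromosome 18, 75367529 to 75395935, plus strand, 4 exons) was at 492 to 640.1 CPM in them and at no more than 304 CPM in any other class. Lymphoid cells came next, with medians of 205 CPM in B-cell-like and 177 CPM in T-cell-like cells, and monocyte-like cells were lowest at 41.4 CPM. Skil (ENSMUSG00000027660; chromosome 3, 31095058 to 31122577, plus strand, 7 exons) was at 355 to 574 CPM in microglia-like cells, above the 165 to 332 CPM of border-associated macrophage-like cells.

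**Figure D1:**
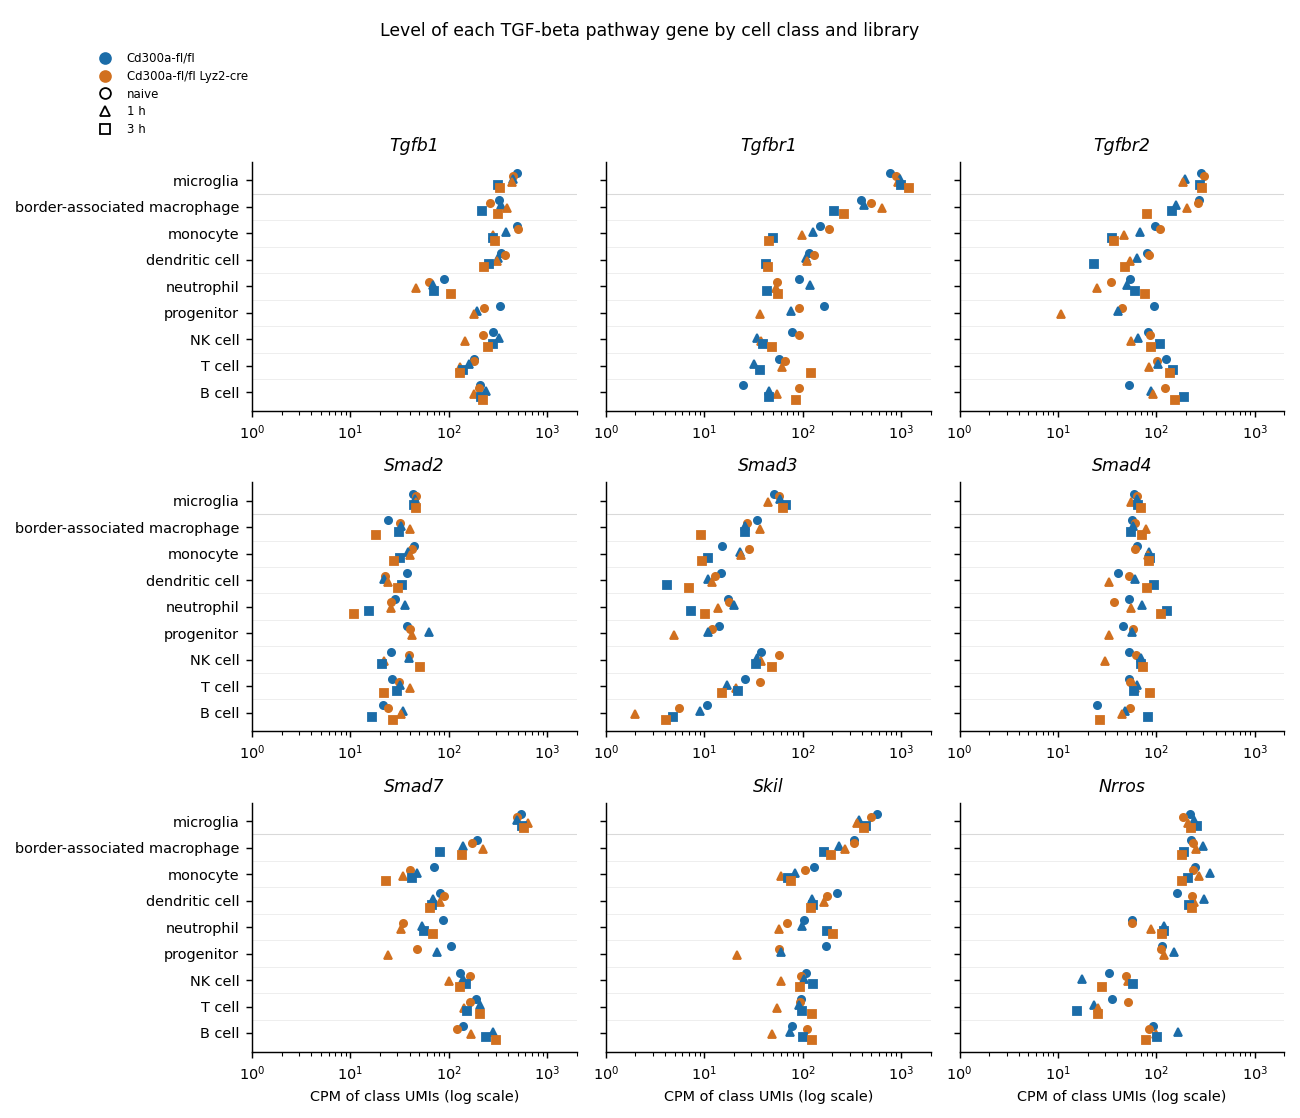
Level of each gene in CPM (log axis) in 9 cell classes, all of which carry the ending -like in the text; each point is 1 library, blue for fl/fl and orange for Lyz2-cre, with circles for naive, triangles for 1 h and squares for 3 h, and libraries with fewer than 20 cells of a class are left out. Microglia-like points stand apart from every other class for Tgfbr1, Smad7 and Skil and overlap other classes for Smad2 and Smad4.

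After each cell had been thinned to 2000 UMIs, Tgfbr1 was seen in 76.4% to 84.9% of microglia-like cells over the 6 libraries and in 6.78% to 13.7% of neutrophil-like cells, a class with little of this transcript. The thinning left out 120 to 613 microglia-like and 33 to 170 neutrophil-like cells per library. Without it the median share in microglia-like cells was 94.7%. Transcripts of microglia were also found in other classes. The sum of 9 microglia markers (P2ry12, Tmem119, Sall1, Siglech, Fcrls, Gpr34, Olfml3, Slc2a5 and Sparc) reached, in neutrophil-like cells, 9.93% and 2.78% of the microglia-like level before MCAO (fl/fl, then Lyz2-cre). At 1 h these shares were 9.05% and 4.28%, and at 3 h they were 1.69% and 2.51%. In monocyte-like cells it reached 8.18% and 4.32%, then 4.55% and 4.32%, then 1.82% and 1.46%, with none of the 9 markers at 0 in any library. These shares were lowest at 3 h in both classes. Their part in the changes of the pathway genes was not tested, and the levels less that share are given beside some of the results.

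The comparisons over time used the 2 libraries of each time, 1 per genotype, in 1 model for time and genotype fitted to all genes of a class with edgeR's quasi-likelihood test. Fold changes are on the log2 scale with their standard error (SE), after TMM scaling, and adjusted p-values are Benjamini-Hochberg values over all genes of the class. The first question was what happened to the pathway in microglia-like cells in the first hour. The type 2 receptor Tgfbr2 and the inhibitor Skil fell, and the type 1 receptor Tgfbr1 and the anchoring gene Nrros rose. Tgfbr2 was at 285 and 305 CPM in the naive fl/fl and Lyz2-cre libraries and at 195 and 185 CPM at 1 h, and fell by 0.53 ± 0.08 (adjusted p = 0.00165). The groups did not overlap, and the share of microglia-like cells with a Tgfbr2 UMI at 2000 UMIs went from 41.9% (95% Clopper-Pearson interval 40.6% to 43.2%) and 44.9% to 32.4% (31.3% to 33.6%) and 31.1%. These intervals, and the Poisson intervals used elsewhere, cover counting error only.

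Skil, the nuclear inhibitor, was at 574 and 495 CPM in naive libraries and at 379 and 355 CPM at 1 h, and fell by 0.43 ± 0.08 (adjusted p = 0.00604). The immediate early gene Jun fell beside it, from 9880 and 8600 CPM to 2760 and 2910 CPM. Tgfbr1 was at 772 and 895 CPM and then at 981 and 938 CPM, a rise of 0.31 ± 0.09 (adjusted p = 0.033). Nrros was at 218 and 186 CPM and then at 242 and 209 CPM, higher at 1 h within each genotype, and rose by 0.27 ± 0.08 (adjusted p = 0.030). The 2 naive Nrros values lay on both sides of the Lyz2-cre value at 1 h. With 4 of 9 members called, 2 up and 2 down, the share stood beside 26.8% of all 12809 genes tested. Tgfb1, at 491 and 454 CPM and then 444 and 437 CPM, and Smad2, Smad3, Smad4 and Smad7 were not called, with adjusted p from 0.216 to 0.968.

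These calls depended on single libraries. Fewer of all genes were called as well when a naive or a 1 h library was left out, so such losses are not particular to the members. Leaving out the Lyz2-cre naive library left 0 members called at 1 h and leaving out the fl/fl naive library left 1, which was Tgfbr2. Without the Lyz2-cre naive library Tgfbr2 was at -0.47 (adjusted p = 0.052). Leaving out the fl/fl 1 h library lost Tgfbr1, Skil and Nrros, and leaving out the Lyz2-cre 1 h library lost Nrros. The rises of Tgfbr1 and Nrros were also not called without TMM factors, at 0.21 (adjusted p = 0.108) and 0.16 (adjusted p = 0.166), a scaling under which the median of all genes moved from -0.01 to -0.12.

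The 250 bases before the transcription start of the 3 receptor and anchoring genes that moved in the first hour are shown to set their sequence beside their opposite changes (RefSeq, GRCm38.p6, each printed 5′ to 3′ on the strand of the gene). Of the 9 genes, 5 had an entry in the promoter table that was used. Capitals mark matches on either strand to 4 motifs: the SMAD box CAGAC, the SP1 box GGGCGG, the AP-1 site TGANTCA, where N is any base, and the PU.1 core GAGGAA. No matches of different motifs overlapped in these windows.
Tgfbr1, chr4:47352972-47353221, plus strand: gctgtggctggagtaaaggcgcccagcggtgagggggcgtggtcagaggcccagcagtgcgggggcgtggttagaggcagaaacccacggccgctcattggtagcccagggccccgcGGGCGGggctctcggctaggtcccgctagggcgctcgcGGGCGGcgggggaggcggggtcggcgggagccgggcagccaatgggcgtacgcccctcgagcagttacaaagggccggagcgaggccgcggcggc
Tgfbr2, chr9:116175364-116175613, minus strand: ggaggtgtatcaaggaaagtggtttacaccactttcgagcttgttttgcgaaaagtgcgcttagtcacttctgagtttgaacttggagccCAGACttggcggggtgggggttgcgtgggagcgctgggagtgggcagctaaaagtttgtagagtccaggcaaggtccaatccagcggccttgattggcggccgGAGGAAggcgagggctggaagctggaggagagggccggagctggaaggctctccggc
Nrros, chr16:32165595-32165844, minus strand: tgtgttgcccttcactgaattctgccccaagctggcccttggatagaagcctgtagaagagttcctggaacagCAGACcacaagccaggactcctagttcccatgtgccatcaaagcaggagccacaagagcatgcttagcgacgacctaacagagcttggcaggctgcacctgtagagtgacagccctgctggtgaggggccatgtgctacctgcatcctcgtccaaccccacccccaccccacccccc
The Tgfbr1 window held 2 SP1 boxes and no match to the other 3 motifs. The Tgfbr2 window held 1 SMAD box and 1 PU.1 core, and the Nrros window 1 SMAD box. Over the first listed windows of 27025 genes, 42.1% held a SMAD box, 32.9% an SP1 box, 23.1% a PU.1 core and 6.87% an AP-1 site, so these matches are common. A match is a string of letters and was not tested as a binding site.

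At 3 h the pattern in microglia-like cells was a different one. Tgfb1 was at 491 and 454 CPM in the naive libraries and at 313 and 333 CPM at 3 h, and fell by 0.47 ± 0.08 (adjusted p = 0.00165). The 3 h values lay below all 4 others, and the fall between 1 h and 3 h was the same size, at 0.47 ± 0.08 (adjusted p = 0.00149). Tgfb1 held its call against naive in all 12 alternative fits, at adjusted p of up to 0.0445. Tgfbr2, in contrast, was back at 279 and 288 CPM. It rose by 0.55 ± 0.08 from 1 h to 3 h (adjusted p = 0.000473) and differed from naive by 0.02 ± 0.08 (adjusted p = 0.819).

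Tgfbr1 was at 1002 and 1199.7 CPM at 3 h and rose by 0.48 ± 0.09 against naive (adjusted p = 0.00242). Both 3 h libraries lay above both naive ones, though without the fl/fl naive library the rise of 0.39 was not called. Nrros was at 258 and 223 CPM and rose by 0.33 ± 0.08 (adjusted p = 0.00598), a call lost without either naive library (adjusted p = 0.0819 and 0.0828). Its share of cells at 2000 UMIs did not follow, with 35.4% and 31.8% of naive cells and 33.5% and 32.8% of cells at 3 h, so no order of cells is read from it. Smad3, which carries the signal to DNA, was at 51.0 and 57.6 CPM, 58.3 and 44.8 CPM, and 67.6 and 62.8 CPM at the 3 times. It rose by 0.34 ± 0.11 against naive (adjusted p = 0.0368) and by 0.32 ± 0.11 against 1 h (adjusted p = 0.0463), but without the fl/fl naive library the first rise was 0.11 (adjusted p = 0.491) and without the Lyz2-cre 1 h library the second had an adjusted p of 0.45.

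Skil stayed below naive at 3 h, at 439 and 422 CPM, with a change of -0.23 ± 0.08 that lay at the threshold (adjusted p = 0.0495) and was not called when any single library was left out. Smad4, at 65.3 and 69.2 CPM, missed the threshold (0.21 ± 0.09, adjusted p = 0.0643), and Smad2 and Smad7 were not called. In all, 5 of 9 members were called at 3 h against naive, 3 up and 2 down, beside 47.7% of all genes, and 3 of 9 at 3 h against 1 h, 2 up and 1 down, beside 47.6%. Shares this near those of all genes show nothing particular to the pathway. Without the fl/fl naive library fewer of all genes were called, and of the members only Tgfb1 kept its call against naive.

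**Figure D2:**
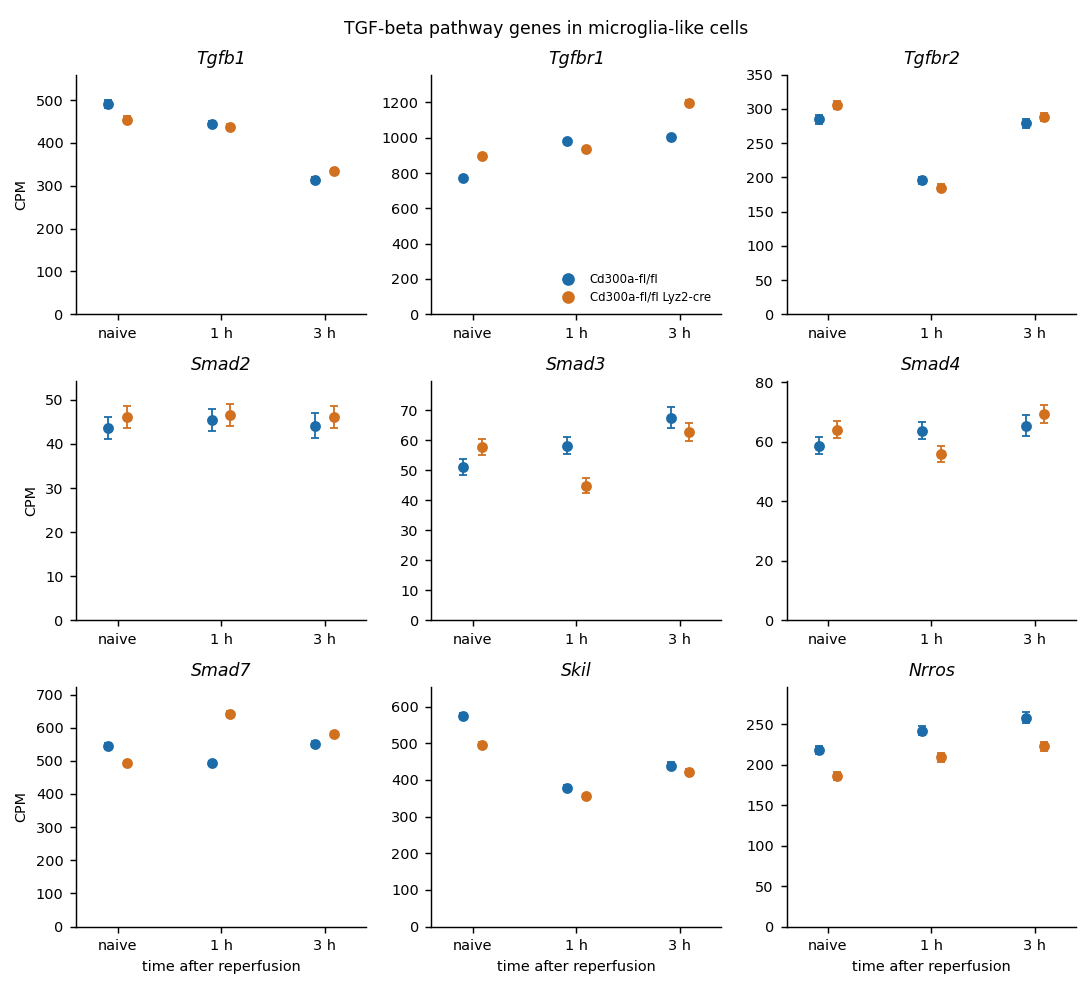
Level of each gene in microglia-like cells (CPM, axes from 0) at the 3 times; each point is 1 library of 3 pooled brains, with its exact 95% Poisson interval, which is smaller than the point for abundant genes. Tgfb1 is low only at 3 h, Tgfbr2 only at 1 h, and Smad7 is highest in the Lyz2-cre 1 h library at 640.1 CPM.

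The microglia-like class was made of 10 clusters, and the libraries of different times lay in different ones: 3585 and 3774 of the naive cells were in cluster 2, and 11 and 24 of those at 3 h. The clusters were made from the same counts, so the values by cluster are a description. At 3 h, 7 clusters held at least 100 cells in both libraries. Smad7 was highest in clusters 7 and 18, at 872 and 784 CPM in the fl/fl library and 1008 and 872 CPM in the Lyz2-cre library. Cluster 7 was led by the heat shock genes Hspb1 and Hspa1a, and cluster 18 by Gdf15, followed by Hspb1 and Hspa1a. In clusters 3 and 13 Smad7 was at 265 to 355 CPM.

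Nrros was high in cluster 13 (390.5 and 338 CPM) and cluster 18 (312 and 351 CPM), and low in clusters 0, 4 and 7, at 93.8 to 121 CPM in both libraries. Cluster 13 was led by Rcan1, Gpr84 and Ccl12. Smad3 was highest in clusters 6 and 18, at 92.1 to 129.7 CPM, and at 37.4 to 60.7 CPM in the other 5. Tgfbr1 was highest in clusters 4 and 0, at 1475 to 1651 CPM, and lowest in cluster 13, at 660.0 and 966 CPM. Cluster 4 held 1679 cells with a median of 2696 UMIs, mostly from the 3 h libraries, and was led by Csmd3 and Tanc2. Without its cells the change of Tgfbr1 at 3 h was 0.44 (adjusted p = 0.00664), that of Nrros 0.45 (adjusted p = 0.00287) and that of Smad3 0.42 (adjusted p = 0.0201), while the 1 h rises of Tgfbr1 and Nrros went to adjusted p = 0.0526 and 0.0564. This alternative was chosen after the clusters had been seen.

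**Figure D3:**
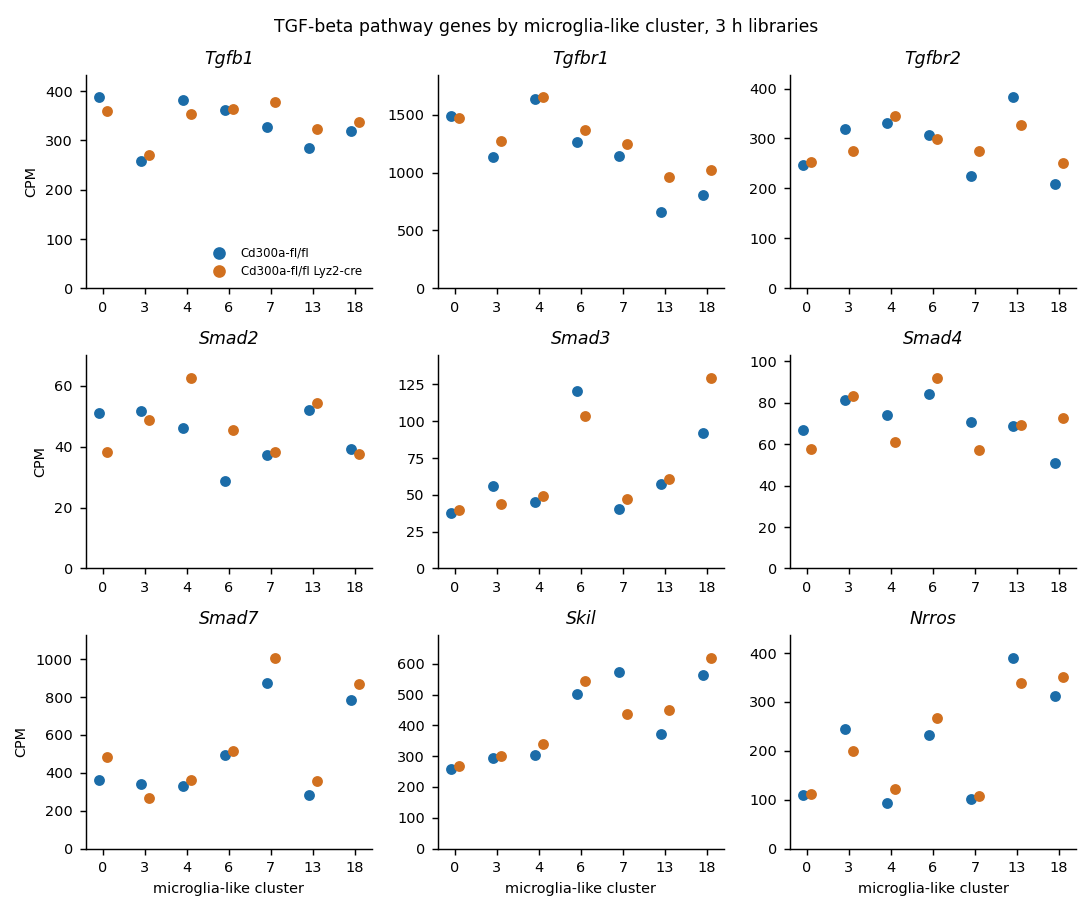
Level of each gene (CPM, axes from 0) in the 7 microglia-like clusters that held at least 100 cells in both 3 h libraries; blue points are the fl/fl and orange points the Lyz2-cre library. Clusters differ more than the 2 libraries do for Smad3, Smad7, Skil and Nrros, with Smad7 highest in clusters 7 and 18 and Nrros lowest in clusters 0, 4 and 7.

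In monocyte-like cells, blood-derived phagocytes, receptor transcripts fell. No member was called at 1 h, beside 1.77% of 8946 genes, and DESeq2 also called 0. An unadjusted p under 0.05 was reached by 6 of 9, beside 1580 of the 8946 genes. At 3 h against naive 7 of 9 were called, 1 up and 6 down, beside 27.3% of all genes, and the members' median change was -0.57 beside -0.02 for all genes. Tgfbr1 was at 149 and 185 CPM in the naive, 126 and 99.8 CPM in the 1 h and 49.9 and 45.1 CPM in the 3 h libraries. It fell by 1.65 ± 0.17 (adjusted p = 6.97e-05) and held its call in all 12 alternative fits, though with no barcodes removed as doublets the change was -0.92 (adjusted p = 0.00412). Tgfbr2 was at 97.7 and 108, then 67.6 and 46.9, then 35.6 and 37.0 CPM, and fell by 1.32 ± 0.18 (adjusted p = 0.000468), also in all 12. For both receptors the values at 3 h lay below those of all other libraries.

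The other members changed less. Tgfb1 was at 496 and 506 CPM in naive and at 281 and 295 CPM in 3 h libraries, and fell by 0.61 ± 0.14 (adjusted p = 0.0111), a call lost without the Lyz2-cre naive or the fl/fl 3 h library. Smad4, the SMAD shared by all branches of the pathway, was the 1 member that rose, from 63.9 and 61.1 CPM to 85.9 and 84.7 CPM (0.65 ± 0.15, adjusted p = 0.00982), a call lost in 4 of 12 alternatives, among them DESeq2 and either 3 h library left out. Smad3 fell by 1.02 ± 0.29 (adjusted p = 0.0236), from 15.0 and 28.6 CPM to 10.8 and 9.48 CPM, a call lost in 5 of 12. Without the Lyz2-cre naive library the Smad3 change was -0.33 (adjusted p = 0.689) and without the Lyz2-cre 3 h library -0.62 (adjusted p = 0.353). Smad7 fell by 0.57 ± 0.19 (adjusted p = 0.045) and Skil by 0.49 ± 0.16 (adjusted p = 0.0483). Each lost its call in at least 6 of 12 alternatives. Less the share of the microglia-like level that the 9 markers reached, Smad7 did not fall in both genotypes. It was then higher at 3 h than in naive in the fl/fl libraries and lower in the Lyz2-cre libraries. Between 1 h and 3 h 3 of 9 members fell and 0 rose, beside 19.5% of all genes: Tgfbr1 by 1.11 ± 0.17 (adjusted p = 0.00145), Smad3 by 1.09 ± 0.27 (adjusted p = 0.0195) and Nrros, from 347 and 269.6 to 208 and 180.3 CPM, by 0.54 ± 0.13 (adjusted p = 0.0169).

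The makeup of the class changed over the same times. Cluster 14, led by genes such as Vcan, Fn1 and Ccr2 as in classical monocytes, held 46 and 75 cells of the naive libraries and 398 and 667 at 3 h. Cluster 17, led by Ace, Ear2 and Treml4 as in patrolling monocytes, held 63 and 171, and then 113 and 149. Over all libraries Tgfbr1 was at 40.7 CPM in cluster 14 and at 194.5 CPM in cluster 17, and Tgfbr2 at 32.6 and 105 CPM. Without cluster 17 the log2 change of Tgfbr1 at 3 h was -1.60 (adjusted p = 0.000191) and that of Tgfbr2 was -0.82 (adjusted p = 0.0466). Smad3, Smad7 and Skil then lost their calls and 4 of 9 members were left, beside 1418 of 7788 genes. Within cluster 17 itself Tgfbr1 was at 192 and 259.5 CPM in the naive and at 148 and 168 CPM in the 3 h libraries, and in cluster 14 it was at 31.9 and 28.2 CPM at 3 h. Less the share of the microglia-like level that the 9 markers reached, Tgfbr1 was at 85.9 and 147 CPM in the naive and at 31.7 and 27.6 CPM in the 3 h libraries, so both 3 h values stayed below both naive values.

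In neutrophil-like cells, the short-lived phagocytes that enter the brain from blood, some members rose by 3 h. No member was called at 1 h, beside 0.998% of 7719 genes, and DESeq2 also called 0. An unadjusted p under 0.05 was reached by 2 of 9, beside 927 of the 7719 genes. At 3 h against naive 4 of 9 were called, all up, beside 29.7% of all genes. Smad2 and Smad3, which were not called, had lower CPM at 3 h than in naive libraries in both genotypes. Smad4 was at 52.4 and 36.7 CPM in the naive, 71.9 and 55.2 CPM in the 1 h and 129 and 111 CPM in the 3 h libraries. It rose by 1.75 ± 0.24 (adjusted p = 0.000374) and held its call in all 12 alternatives. Skil was at 103 and 69.1, then 99.4 and 58.0, then 177 and 205 CPM, and rose by 1.48 ± 0.24 (adjusted p = 0.000965), also in all 12. For both genes the 3 h libraries lay above all others.

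Nrros was at 57.1 and 57.1 CPM in naive, 119.5 and 88.4 CPM in 1 h and 118 and 114 CPM in 3 h libraries, and rose by 1.30 ± 0.24 (adjusted p = 0.00196), a call lost without the fl/fl naive library (1.17, adjusted p = 0.0632). Tgfbr2 rose by 0.98 ± 0.29 (adjusted p = 0.0246), from 53.9 and 34.9 to 61.3 and 77.1 CPM, and lost its call in 7 of 12 alternatives. These folds rest on TMM scaling: in this comparison the median of all genes was -0.06 with it and -0.35 without it. Without TMM factors 4 members were also called, but 3 up and 1 down, beside 1947 of 7719 genes. Tgfbr2 was not called, at 0.71 (adjusted p = 0.167), and Smad2 was called as lower. With no barcodes removed as doublets 6 were called, with Smad7 and Tgfbr1 added, beside 2073 of 8890 genes. Tgfbr1 then went from -0.21 to 0.81 (adjusted p = 0.0321). Against 1 h 5 of 9 members were called, 4 up and 1 down, beside 26.5% of all genes. Skil rose by 1.49 ± 0.23 (adjusted p = 0.00138), Smad4 by 1.07 ± 0.22 (adjusted p = 0.0057), Tgfbr2 by 1.14 ± 0.28 (adjusted p = 0.0117) and Tgfb1 by 0.78 ± 0.25 (adjusted p = 0.0412). Smad2 fell by 1.07 ± 0.29 (adjusted p = 0.0206), from 36.0 and 25.9 to 15.3 and 10.96 CPM. Tgfb1 lost its call in 9 of 12 alternatives, and Tgfbr2 and Smad2 each in 4.

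Here too the class changed in makeup. Cluster 19 held 0 and 2 of the naive cells, 24 and 19 of those at 1 h and 945 and 908 of those at 3 h. Cluster 10, led by granule genes such as Ltf and Ngp and with a median of 7157 UMIs, held 56 and 154 naive cells, 42 and 381 at 1 h and 30 and 30 at 3 h. Over all libraries Nrros was at 50.8 CPM in cluster 10, 133 CPM in cluster 12 and 123 CPM in cluster 19. Skil was at 53.6, 91.3 and 208 CPM in them. Without cluster 10, an alternative chosen after the clusters had been seen, the change of Smad4 at 3 h against naive was 1.66 (adjusted p = 0.00531) and that of Skil 1.39 (adjusted p = 0.00268), while that of Nrros was 0.57 (adjusted p = 0.163) and that of Tgfbr2 0.26 (adjusted p = 0.574). Against 1 h, Skil alone was called without it, and Smad4 was at 0.55 (adjusted p = 0.26). Less the share of the microglia-like level that the 9 markers reached, Skil was at 46.2 and 55.4 CPM in the naive and at 169 and 195 CPM in the 3 h libraries, and Smad4 was at 46.6 and 34.9 CPM and at 128 and 109.7 CPM.

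**Figure D4:**
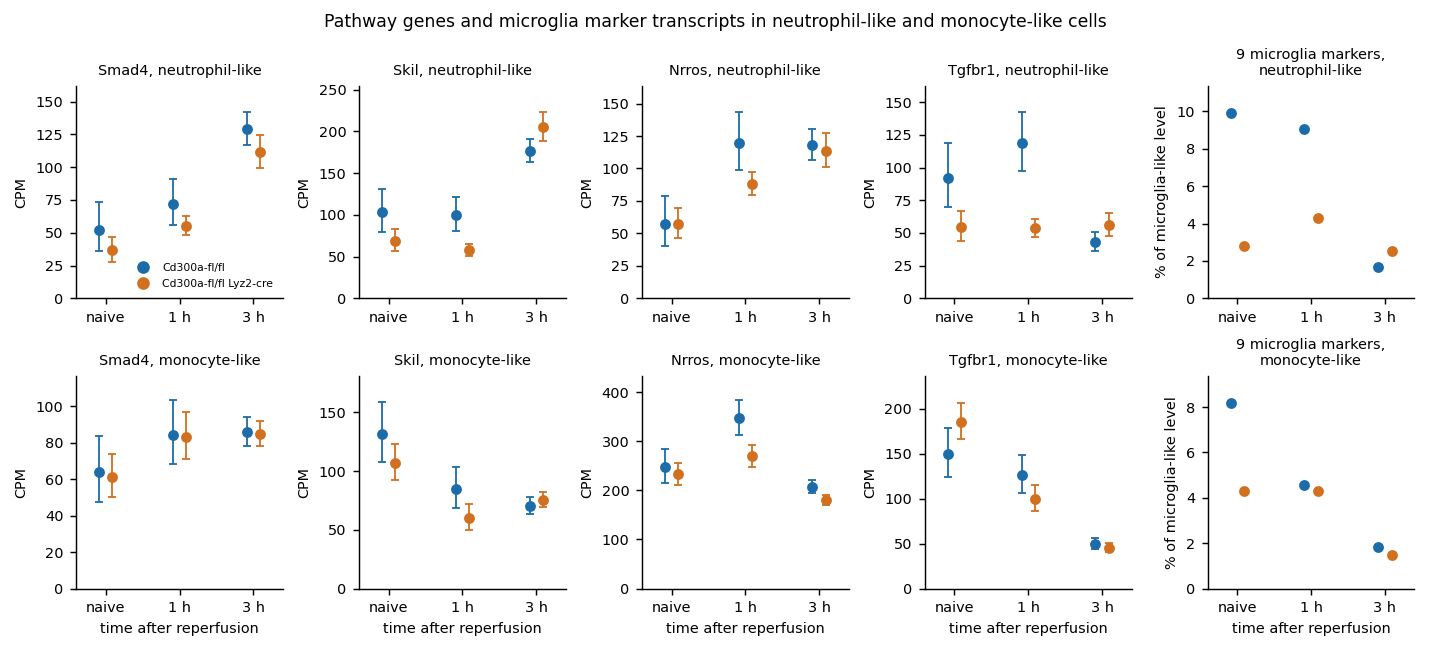
Level of Smad4, Skil, Nrros and Tgfbr1 in neutrophil-like (upper row) and monocyte-like cells (lower row) by time, in CPM with exact 95% Poisson intervals, and at the right the summed level of 9 microglia markers as a percent of that in microglia-like cells; each point is 1 library and all axes start at 0. Smad4 and Skil are highest at 3 h in neutrophil-like cells, Tgfbr1 is lowest at 3 h in monocyte-like cells, and the markers fall to 1.46% to 2.51% at 3 h in both classes.

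In T-cell-like cells no member was called at 1 h (beside 3.21% of 7874 genes), at 3 h against naive (5.74%) or at 3 h against 1 h (2.53%), and DESeq2 called 0 in each. At an unadjusted p under 0.05 there was 1 member (Nrros) at 1 h, 3 at 3 h against naive and 1 (Tgfbr2) at 3 h against 1 h. All genes at that level numbered 1373, 1623 and 1451 of 7874, in the same order. Nrros was nearest the threshold, at 35.5 and 50.9 CPM in naive and 15.5 and 25.4 CPM in 3 h libraries (-0.96 ± 0.28, adjusted p = 0.0712). Tgfbr2, which restrains T cells, was at 124 and 103 CPM and at 146 and 137 CPM (0.46 ± 0.17, adjusted p = 0.144). Each sum held 91 to 488 cells, and markers of type 2 innate lymphoid cells in the same cluster went from 436 and 578 CPM in naive to 1496 and 2918 CPM in 3 h libraries. Their part in these values was not tested.

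The difference between classes in the change from naive to 3 h was tested directly, with each library as a block. Against microglia-like cells, 4 of 9 members changed differently in monocyte-like cells, beside 19.7% of 12771 genes. Tgfbr1 rose in 1 class and fell in the other, a difference of -2.02 ± 0.18 (adjusted p = 5.34e-21). Tgfbr2 differed by -1.25 ± 0.18 (adjusted p = 6.15e-10), Smad3 by -1.27 ± 0.27 (adjusted p = 7.6e-05) and Smad4 by 0.53 ± 0.18 (adjusted p = 0.0265). In neutrophil-like cells 5 of 9 changed differently, all towards higher values, beside 15.6% of 12573 genes. Skil, which fell in microglia-like cells, differed by 1.85 ± 0.29 (adjusted p = 1.07e-08), Smad4 by 1.71 ± 0.29 (adjusted p = 2.08e-07), Tgfb1 by 1.11 ± 0.29 (adjusted p = 0.00187), Tgfbr2 by 1.11 ± 0.30 (adjusted p = 0.00327) and Nrros by 1.09 ± 0.29 (adjusted p = 0.00249). In T-cell-like cells Nrros alone differed, by -1.27 ± 0.31 (adjusted p = 0.00135), beside 6.18% of 13052 genes. These fits had 3 residual degrees of freedom and took almost all of their spread from other genes, so their p-values are smaller than those of the fits within a class. The differences of Tgfb1, Tgfbr2 and Nrros in neutrophil-like and of Smad4 in monocyte-like cells were not called without TMM factors. Those of Tgfb1 and Tgfbr2 were also lost without the Lyz2-cre naive library (adjusted p = 0.085 and 0.242) or the Lyz2-cre 3 h library, and that of Nrros without the fl/fl naive library (adjusted p = 0.200). Between naive and 3 h, neutrophil-like Tgfb1 had a log2 ratio of -0.35 between the fl/fl libraries and of 0.75 between the Lyz2-cre libraries. In monocyte-like cells the Smad3 difference was -0.71 (adjusted p = 0.426) without the Lyz2-cre naive library, and that of Smad4 was lost without any of the 4 naive and 3 h libraries. That of Nrros in T-cell-like cells was not called without the Lyz2-cre naive or the fl/fl 3 h library (adjusted p = 0.234 and 0.494).

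**Figure D5:**
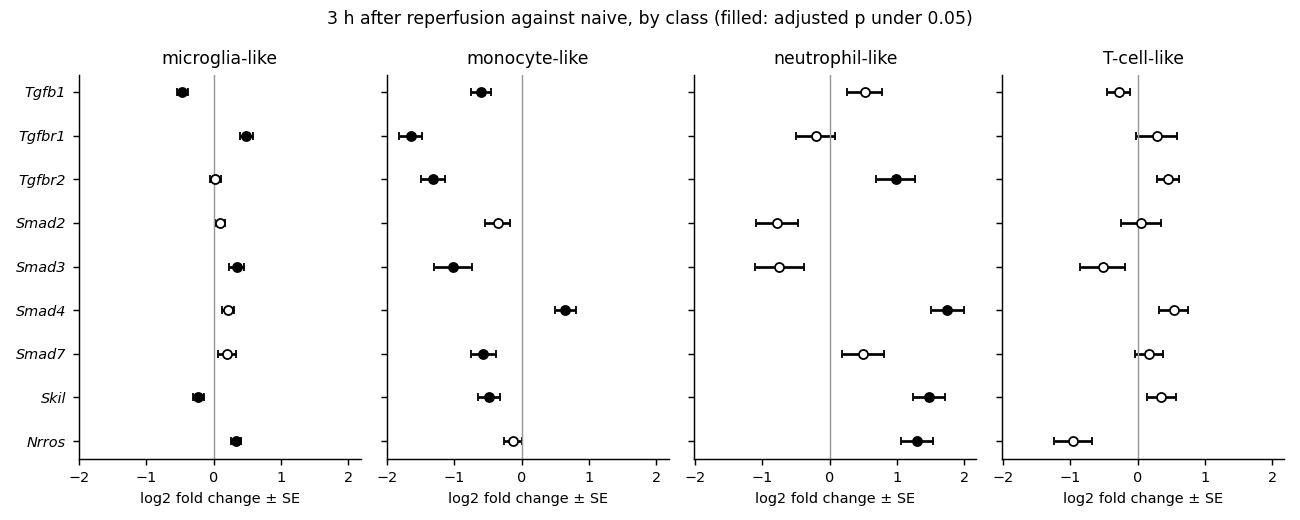
Log2 fold change from naive to 3 h with its SE for the 9 genes in 4 classes, from edgeR's quasi-likelihood fits of 6 libraries per class; filled points have an adjusted p under 0.05. Tgfbr1 rose by 0.48 in microglia-like cells and fell by 1.65 in monocyte-like cells, Smad4 and Skil rose in neutrophil-like cells, and no point is filled in T-cell-like cells.

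The genotype comparison asked whether the pathway differed between Lyz2-cre and fl/fl mice over the 3 times. No member was called in any of the 4 classes, beside 0.468% of all genes in microglia-like, 0.0559% in monocyte-like, 0.0259% in neutrophil-like and 0.0381% in T-cell-like cells, and DESeq2 called 0 in each. At an unadjusted p under 0.05 there were 2 in microglia-like cells, 1 in monocyte-like, 0 in neutrophil-like and 1 in T-cell-like cells. All genes at that level numbered 1344 of 12809, 411 of 8946, 411 of 7719 and 431 of 7874, in the same order. In microglia-like cells Nrros was lower in the Lyz2-cre library at each of the 3 times (218 against 186, 242 against 209 and 258 against 223 CPM; -0.27 ± 0.06, adjusted p = 0.143). In monocyte-like cells Smad7 was lower in the Lyz2-cre library at each time, at 40.3, 34.3 and 22.8 CPM against 70.2, 47.2 and 42.5 CPM (-0.77 ± 0.15, adjusted p = 0.248). The microglia marker share of this class was also lower in the Lyz2-cre library at each time, most clearly in naive mice. The part of that share in the Smad7 difference was not tested. A change of 1 genotype at 1 time has no replicate: in microglia-like cells Smad7 went from 545 to 492 CPM between naive and 1 h in fl/fl and from 492 to 640.1 CPM in Lyz2-cre mice.

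Other genes of the pathway were counted in 6 lists. In microglia-like cells at 3 h against naive, where 47.7% of all genes were called, the share called was 44.4% of activin and BMP genes, 33.3% of SMAD partners and 41.2% of inhibitors, all below that of all genes. It was 70.0% of ligand and latency genes, 60.0% of TGF-beta dependent microglia genes and 78.6% of target genes. Of 10 tested ligand and latency genes 5 rose and 2 fell. The integrin subunits Itgav and Itgb1, which bind and release latent TGF-beta, rose by 0.71 and 0.26, and Thbs1, a matrix protein that can activate it, rose by 2.18, to 16.7 and 25.1 CPM. Mmp2, a matrix protease, fell by 0.88. Of 9 activin and BMP ligands and receptors 2 rose and 2 fell. Of 9 other SMADs and partners 2 rose, among them Runx1 by 1.66, and Smad6 fell by 1.19 at 3.54 CPM or less. Of 17 inhibitors and ubiquitin ligases 5 rose and 2 fell, and Pmepa1, a TGF-beta induced inhibitor, fell by 0.93 ± 0.09 (adjusted p = 3.91e-05), from 1090 and 1220 to 523 and 625 CPM.

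Genes known as TGF-beta targets mostly rose in microglia-like cells at 3 h, 8 of 14 up and 3 down, with a list median of 1.84 beside -0.02 for all genes. Gadd45b rose by 4.45 ± 0.28 (adjusted p = 0.000892), from 15.3 and 11.9 to 400 and 188 CPM, and the cell cycle inhibitor Cdkn1a by 2.54 ± 0.09 (adjusted p = 1.58e-07); both also respond to stress and DNA damage. Fn1 rose by 3.08 ± 0.38 (adjusted p = 0.000221) but only to 2.31 and 3.58 CPM, and monocyte-like cells, which grew in number, held it at 995 and 1236 CPM at 3 h. How much of the Fn1 in microglia-like cells came from them was not tested. At 1 h, beside 26.8% of all genes called, 7 of 14 rose and 2 fell. Id3 rose by 2.36 ± 0.35 at no more than 3.05 CPM and Gadd45b by 2.25 ± 0.27. Pdgfb fell by 1.19 ± 0.10 while Junb fell by 1.08 ± 0.10.

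Of 25 genes that microglia are known to lose without TGF-beta, 12 rose and 4 fell at 1 h, with a median of 0.23, beside 26.8% of all genes called. At 3 h against naive 1 rose and 14 fell, with a median of -0.33, beside 47.7%. From 1 h to 3 h 16 fell and 0 rose, beside 47.6% of all genes: Olfml3 fell by 1.31 ± 0.10 and P2ry12, the purinergic receptor of resting microglia, by 1.29 ± 0.10. Jun, a member of this list, fell by 1.33 ± 0.12 at 3 h against naive, and the 1 gene that rose was Entpd1 (0.81). The list shares 12 genes with the markers that named the class, so its direction is not independent of the naming. The other lists at 1 h in these cells, beside the same 26.8%, gave 2 up of 10 (ligands and latency), 1 up and 1 down of 9 (activin and BMP), 1 up and 3 down of 9 (SMAD partners) and 3 up and 1 down of 17 (inhibitors).

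In monocyte-like cells at 3 h against naive, beside 27.3% of all genes called, 5 of 6 ligand and latency genes changed, 2 up and 3 down, with Thbs1 up by 5.61 ± 0.22 (adjusted p = 4.17e-07), from 26.3 and 52.7 to 1790 and 1770 CPM. Of 9 activin and BMP genes 3 rose and 2 fell. Inhba, which encodes the activin A subunit, had 0 UMIs in both naive libraries and 791 UMIs at 3 h, at least 56.5-fold higher against a floor of 3 UMIs over both naive libraries. Of 8 SMAD partners 2 rose and 1 fell, of 16 inhibitors 1 rose and 2 fell, and of 11 target genes 6 rose and 2 fell. Id3 rose by 2.19 ± 0.48 and Pdgfb fell by 3.37 ± 0.32. Of the 25 microglia genes 2 rose and 20 fell, among them Sall1 by 3.01 ± 0.42 and Cx3cr1 by 2.79 ± 0.15. Sall1 is a defining marker of microglia and was at 41.3 and 14.0 CPM in naive monocyte-like cells, and the part of microglia transcripts in this count was not tested.

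In neutrophil-like cells at 3 h against naive, beside 29.7% of all genes called, 3 of 6 ligand and latency genes rose, 1 of 7 activin and BMP genes and 2 of 6 SMAD partners rose, and 3 of 16 inhibitors rose and 2 fell. Pmepa1 fell by 2.15 ± 0.40, from 84.1 and 33.7 to 7.07 and 12.8 CPM, and Smurf1, a ubiquitin ligase, by 2.14 ± 0.49. Microglia-like cells held Pmepa1 at 1090 and 1220 CPM in naive and at 523 and 625 CPM in 3 h libraries. Of 9 target genes 7 rose and 1 fell: Cdkn1a rose by 7.57 ± 0.52, from 3.17 and 2.41 to 378 and 501 CPM, Id1, a helix-loop-helix inhibitor, rose by 4.14 ± 0.35, and Pdgfb fell by 2.10 ± 0.53. Of the 25 microglia genes 1 rose and 11 fell, and the 1 that rose was Entpd1, an ectoenzyme that breaks down ATP (3.17 ± 0.38). The share of microglia marker transcripts in this class was lowest at 3 h. Its part in the falls of Pmepa1, Pdgfb and the 11 microglia genes was not tested. In T-cell-like cells at 3 h, beside 5.74% of all genes called, Itgav rose by 1.41 ± 0.21, Tgif1, a SMAD corepressor, by 1.46 ± 0.26 and Cdkn1a by 1.94 ± 0.27, Bmp7 fell by 2.20 ± 0.44, and Gpr34, which microglia express, fell by 0.99 ± 0.21. Between genotypes 2 of 14 tested target genes were lower in Lyz2-cre microglia-like cells, beside 0.468% of all genes called. Id2 was lower by 0.69 ± 0.08 (adjusted p = 0.00617) and Cdkn1a by 0.47 ± 0.07 (adjusted p = 0.0255). Alternative fits were recorded for the members only. The libraries also differed in makeup: at 3 h cluster 18 held 1571 of 4741 fl/fl and 983 of 7316 Lyz2-cre microglia-like cells. The part of this makeup in the 2 differences was not tested.

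For each member called in microglia-like cells at 3 h, the genes with the most similar levels were found by Pearson's r of log2(CPM + 1) over 52 sums of a class in a library, among 8185 genes. The sums share cells' libraries, so r is a description. Nearest to Tgfb1 were Ccdc50 (0.883), Magt1 (0.866) and Zcchc24 (0.865), and among those nearest to Tgfbr1 were Hpgds (0.942) and Tpp1 (0.941). Nrros was nearest to Ctsh (0.920), Fcgr2b (0.915) and Tifa (0.906). Smad3 was nearest to Prex1 (0.811), Camk2n1 (0.809) and Ifitm10 (0.799), and Skil to Ier5 (0.880), Mgat4a (0.880) and Btg2 (0.876), of which Ier5 and Btg2 are immediate early genes. Among the members themselves r was highest between Tgfbr2 and Smad7 (0.831) and between Tgfbr1 and Skil (0.820), and lowest between Smad4 and Smad7 (-0.078).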

How the data were processed

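Gene expression was measured in 6 libraries of sorted brain leukocytes with the 10x Chromium 3′ chemistry, per the labels' protocols. The authors deposited filtered matrices of raw UMI counts per gene and barcode, made with Cell Ranger 3.0.2 on mm10, per the submitters' processing notes. The design text calls the earliest time 0 h and the sample titles call it naive, and the titles were followed.

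Barcodes under 300 genes or over 10% mitochondrial UMIs were dropped, which left 50634 of 51005. Scrublet's automatic threshold called 433, so the highest-scoring 0.8% per 1000 barcodes were removed instead (3557). Cells were clustered with scanpy 1.11.5 (2000 variable genes, 30 components, resolution 1), and clusters were named from marker genes, so class names may differ from the authors'. UMIs were summed per library and class, and sums of at least 20 cells per library were tested with edgeR 4.0.16 (TMM, filterByExpr, robust quasi-likelihood fit, 2 residual degrees of freedom); median prior degrees of freedom were 7.79 to 9.71. Any genotype-by-time difference stays in the residual. DESeq2 1.42.0 was an alternative. The tests were checked on simulated counts.

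The 9 members and all lists were chosen with earlier results of these data known. Named beside the members were, per class and comparison, up to 3 rising and 3 falling pathway genes with the largest called change, and the 3 genes of most similar level. Results of some genes that these rules name are not reported here.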

Additional observations from a re-analysis of the deposited data

Results flagged for a closer look

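Members whose change from naive to 3 h differed between classes by the test of the difference are listed first. Against microglia-like cells, neutrophil-like cells differed by 1.11 for Tgfb1, 1.11 for Tgfbr2, 1.71 for Smad4, 1.85 for Skil and 1.09 for Nrros on the log2 scale. Monocyte-like cells differed by -2.02 for Tgfbr1, -1.25 for Tgfbr2, -1.27 for Smad3 and 0.53 for Smad4, and T-cell-like cells by -1.27 for Nrros. Microglia marker transcripts fell in the neutrophil-like and monocyte-like sums over the same times, and their part in these differences was not tested.

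In 3 cases the fl/fl and the Lyz2-cre libraries moved in opposite directions, each beyond the Poisson intervals of its counts. The difference was not tested, since each is 1 library against another. In microglia-like cells between naive and 1 h, the log2 ratio of Smad3 was 0.19 in the fl/fl libraries and -0.36 in the Lyz2-cre libraries, and that of Smad7 was -0.15 and 0.38. In neutrophil-like cells between naive and 3 h, that of Smad7 was -0.64 and 1.03. There the naive fl/fl library had the higher microglia marker share, at 9.93% against 2.78%, and less that share of the microglia-like level Smad7 was at 33.2 and 20.6 CPM in naive and at 46.7 and 55.2 CPM in 3 h libraries, higher at 3 h in both genotypes.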

How the results depend on the processing

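The counts of members called (of 9) depended on the processing more than their directions did: over 12 alternatives for a change within a class and 8 for a difference between classes, no called member reversed its sign. Without TMM factors 2 members were called in microglia-like cells at 1 h, 1 in monocyte-like cells at 1 h, 3 in neutrophil-like cells at 3 h against 1 h, 1 in T-cell-like cells at 3 h against naive, and 3 in the difference of neutrophil-like from microglia-like cells. All genes called there were 3630 of 12809, 210 of 8946, 1392 of 7719, 533 of 7874 and 1707 of 12573, in the same order. With no filter on low counts 4 were called in monocyte-like cells at 1 h, 1 in T-cell-like cells at 3 h against naive, and 1 between genotypes in each of microglia-like, monocyte-like and T-cell-like cells. Beside them stood 603 of 14861, 871 of 14795, 297 of 19288, 49 of 14861 and 98 of 14795 genes. With no barcodes removed as doublets the counts at 3 h against naive were 4 in monocyte-like, 6 in neutrophil-like and 1 in T-cell-like cells. Those of all genes were 2222 of 9207, 2073 of 8890 and 621 of 8446. Tgfbr1 in neutrophil-like cells, not called in the reported fit at -0.21, was then called at 0.81. DESeq2 called 3 in monocyte-like cells at 3 h against naive and 1 against 1 h, and 3 in neutrophil-like cells at 3 h against 1 h. Of all genes it called 1290 and 744 of 8946, and 1101 of 7719. Without the cluster that stood apart in each class (chosen after seeing the data), the counts were 2 in microglia-like cells at 1 h, 4 in monocyte-like cells at 3 h against naive, and in neutrophil-like cells 2 at 3 h against naive and 1 against 1 h. Of all genes 2877 of 12805, 1418 of 7788, 1094 of 6370 and 873 of 6370 were called.

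Leaving out 1 library at a time gave 0 to 5 calls in microglia-like cells at 1 h (0 without Lyz2-cre naive, 1 without fl/fl naive, 2 without fl/fl 1 h) and 1 to 4 at 3 h against naive (1 without fl/fl naive). In monocyte-like cells it gave 0 to 4 at 1 h (4 without fl/fl 1 h), 2 to 7 at 3 h against naive (2 without Lyz2-cre naive, 3 without fl/fl 3 h, 4 without Lyz2-cre 3 h), 1 to 3 at 3 h against 1 h (1 without Lyz2-cre 3 h) and 0 to 1 between genotypes. In neutrophil-like cells it gave 0 to 1 at 1 h, 2 to 7 at 3 h against naive (2 without fl/fl naive, 7 without fl/fl 3 h) and 2 to 6 at 3 h against 1 h (2 without Lyz2-cre 1 h). In T-cell-like cells it gave 0 to 1 between genotypes. For the differences from microglia-like cells it gave 3 to 5 in neutrophil-like and 0 to 2 in T-cell-like cells. The numbers of all genes called shifted in these fits as well, so the member counts alone do not tell a shift of the members. A time left with 1 library was assumed to vary like the others, and the cause of these shifts was not tested.

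No paired analysis was possible because each genotype and time had 1 library, so its number 1 pairs nothing, and genotype is already a term of the model. With 2 libraries per time, calls near the threshold are the least certain, and Smad2 and Smad3 in neutrophil-like and T-cell-like cells rest on few UMIs.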
